A study of Mus musculus with 6 samples.

Results

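The smooth muscle type contractile genes of myofibroblasts were followed across 3 samples given anti-Stat3 siRNA and 3 given control siRNA. They were chosen by name, as the rows of the deposited count table with the symbols Acta2, Tagln, Cnn1, Myl9, Tpm1, Tpm2, Actg2, Myh11, Cald1 and Lmod1. All 10 symbols were among the 24015 rows of the table, and all 10 were among the 13284 genes that passed the filter on low counts. Both groups were primary cultures of cancer-associated fibroblasts (CAFs), which are the stromal fibroblasts of a tumour. They came from mammary tumours of BalbC mice with the NeuT transgene, an activated rat Her2/neu that makes the animals develop mammary carcinomas. One group was treated with nanoparticles carrying siRNA against Stat3 and the other with nanoparticles carrying a control siRNA, both at 1 ug/mL for 72 hours. The sources used here do not give the age of the mice or the number of animals or cultures. The comparison asks which CAF genes respond to loss of STAT3, the transcription factor that cytokines of the IL-6 family activate.

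A fibroblast that becomes a myofibroblast builds stress fibres from smooth muscle actin and contracts the matrix around it, as in wound closure and fibrosis. In tumours, high smooth muscle actin marks the contractile CAF state, set apart from a cytokine-secreting state. Transcription of the contractile genes is driven by serum response factor (SRF) with its coactivators, the myocardin-related transcription factors (MRTFs), which enter the nucleus when actin polymerises, and it is raised by TGF-beta.

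Total counts ranged from 12998168 to 18683852 per sample. Samples with the same number in the 2 groups deviated together from their group means over all genes, with correlations of 0.834, 0.818 and 0.831, and same-numbered samples are therefore treated as pairs. The sources used here do not say what the samples of a pair share. Levels are CPM, the usual unit of counts scaled to library size, here with TMM factors. Changes are on the log2 scale, anti-Stat3 siRNA over control siRNA, and were tested in edgeR (quasi-likelihood), with p-values adjusted over all genes tested and a threshold of 0.05. Stat3, the targeted gene, had 34.7, 81.9 and 78.9 CPM in anti-Stat3 samples 1 to 3, against 220.4, 359 and 405 CPM in control samples 1 to 3, so the groups did not overlap. Its log2 change was -2.33 ± 0.41 (SE, edgeR adjusted p = 1.00) with the group alone and -2.38 ± 0.14 (adjusted p = 0.0027) with the pair as a block. Fibroblast markers were abundant in sum in all samples. The summed level of 14 markers was between 44920 and 81340 CPM in the anti-Stat3 samples and between 39650 and 109800 CPM in the control samples. Not every marker was abundant. In the samples numbered 1, Lum had 7.59 CPM with anti-Stat3 siRNA and 4.67 CPM with control siRNA, and Fap had 3.13 and 4.19 CPM.

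Upstream sequences were found for 7 of the 10 genes in RefSeq's promoter table, of the build GRCm38.p6. Tagln, Actg2 and Myh11 had no entry. The 250 bases before the transcription start are shown for the 4 genes whose window held at least 2 matches to the CArG box, the motif bound by SRF, so that the letters of these windows can be read. Capitals mark matches to the CArG box with at most 1 departure from its consensus, and to MCAT (CATTCC, searched on both strands), the motif of TEAD factors. No match overlapped another.
Acta2, chr19:34255374-34255623, minus strand: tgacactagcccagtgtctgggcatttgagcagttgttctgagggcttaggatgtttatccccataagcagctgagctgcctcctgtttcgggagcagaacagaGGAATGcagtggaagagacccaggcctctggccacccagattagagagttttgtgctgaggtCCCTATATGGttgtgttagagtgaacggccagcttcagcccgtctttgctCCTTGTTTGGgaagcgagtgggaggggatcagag
Myl9, chr2:156775214-156775463, plus strand: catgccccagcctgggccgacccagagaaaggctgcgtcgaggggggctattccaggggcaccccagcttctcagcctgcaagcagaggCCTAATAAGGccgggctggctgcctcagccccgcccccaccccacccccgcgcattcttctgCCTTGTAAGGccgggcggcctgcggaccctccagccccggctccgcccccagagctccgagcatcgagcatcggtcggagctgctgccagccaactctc
Tpm1, chr9:67049214-67049463, minus strand: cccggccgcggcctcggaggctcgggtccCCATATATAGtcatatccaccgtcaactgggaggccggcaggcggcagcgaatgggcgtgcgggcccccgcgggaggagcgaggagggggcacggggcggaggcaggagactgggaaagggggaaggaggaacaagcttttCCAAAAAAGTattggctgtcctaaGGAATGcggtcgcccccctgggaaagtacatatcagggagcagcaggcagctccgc
Lmod1, chr1:135324563-135324812, plus strand: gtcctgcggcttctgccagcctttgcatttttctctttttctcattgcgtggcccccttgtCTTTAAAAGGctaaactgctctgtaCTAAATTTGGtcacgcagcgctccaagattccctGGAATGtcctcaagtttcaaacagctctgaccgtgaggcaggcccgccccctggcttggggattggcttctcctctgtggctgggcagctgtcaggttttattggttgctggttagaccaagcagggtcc

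The 7 genes had 8 upstream windows, as Cald1 has alternative starts. A CArG box with at most 1 departure lay in 5 of the 8 windows, against 18.6% of the 32851 windows of the same length in the table. The full consensus was matched once, by CCTAATAAGG in Myl9, where 1.47% of all windows hold one. Acta2 had the matches CCCTATATGG and CCTTGTTTGG, the first starting 84 bases and the second 34 bases before the start. MCAT lay in 4 of the 8 windows, against 12.6% of all, and the same 4 held a CArG match, against 2.61% of all windows with both. The windows of Cnn1 and Tpm2 and 1 window of Cald1 held neither. The STAT motif TTCNNNGAA lay in 0 of the 8 windows and in 7.02% of all windows. These matches describe the letters of the windows and say nothing of binding in these cells, and no link between them and the levels was tested.

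The contractile genes were highly expressed in every sample, and none passed a test for a change with anti-Stat3 siRNA. Together they took 2.37%, 0.967% and 1.45% of all counts in anti-Stat3 samples 1 to 3, against 2.08%, 0.933% and 1.43% in control samples 1 to 3. None of the 10 passed in edgeR with the siRNA group alone, where 0% of all genes tested were called, and 0 of the 10 had an unadjusted p under 0.05, against 1.77% of all genes. With the pair as a block 0 of the 10 were called in edgeR, against 0.0602% of all genes tested, and again 0 had an unadjusted p under 0.05, against 10.8% of all genes. DESeq2 with the same block called 0 of the 10 and 1.66% of all genes, and with the group alone 0 of the 10 and 0.128% of all genes. The groups overlapped for all 10 genes, while they did not overlap for 4.67% of all genes.

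**Figure D1:**
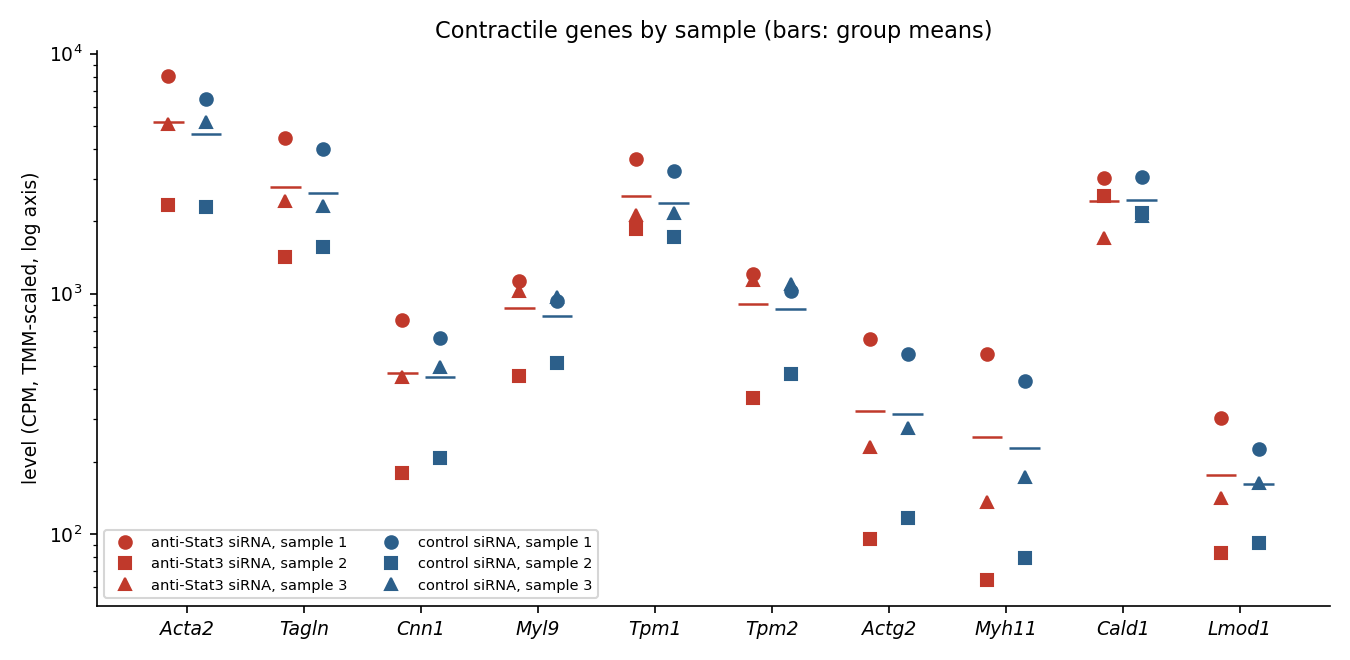
Level of each contractile gene in each sample (CPM, log axis), with anti-Stat3 samples in red left of control samples in blue, circles, squares and triangles for samples 1, 2 and 3, and bars for group means. Same-numbered samples lie close together across the 2 groups, with Acta2 between 2341 and 8071 CPM in anti-Stat3 samples and between 2292 and 6473 CPM in control samples.

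Acta2, smooth muscle alpha-actin and the defining marker of myofibroblasts, had 8071, 2341 and 5088 CPM in anti-Stat3 samples 1 to 3, against 6473, 2292 and 5177 CPM in control samples 1 to 3. Its levels were high in both samples numbered 1 and low in both numbered 2, and the groups overlapped throughout. The means were 5167 ± 2866 CPM with anti-Stat3 siRNA and 4647 ± 2140 CPM with control siRNA (SD, n = 3 each). The edgeR log2 change with the group alone was 0.15 ± 0.56 (SE, adjusted p = 1.00), with a 95% interval of -1.19 to 1.49. With the pair as a block it was 0.11 ± 0.14 (SE), with an interval of -0.23 to 0.45, or 0.851-fold to 1.36-fold. Actg2, the gamma-actin of visceral smooth muscle, had 650.8, 95.6 and 230.2 CPM in anti-Stat3 samples, against 560.0, 115.9 and 275 CPM in control samples. Its samples numbered 1 lay well above the others in both groups. Its blocked log2 change was -0.11 ± 0.14 (SE), with an interval of -0.43 to 0.22. The coding sequences of the actins are much alike and the sources used here do not say how shared reads were counted, so the split between Acta2 and Actg2 is uncertain. With the counts of both genes summed before the fit, the blocked edgeR test still called 0 of the remaining genes (smallest adjusted p = 0.849).

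Myh11, the heavy chain of smooth muscle myosin, had 562, 64.0 and 135.7 CPM in anti-Stat3 samples 1 to 3, against 435, 79.0 and 172.6 CPM in control samples 1 to 3. The anti-Stat3 sample was higher than its control in pair 1 and lower in pairs 2 and 3. Its pair changes were 0.37, -0.30 and -0.35, and the blocked log2 change of -0.09 ± 0.16 (SE) had the widest interval of the 10 genes, -0.48 to 0.29. Myl9, the regulatory light chain whose phosphorylation starts contraction, had 1133, 454 and 1031 CPM in anti-Stat3 samples, against 937, 513 and 973 CPM in control samples. Only the samples numbered 2 stood apart, as the lowest of each group. Its blocked log2 change was 0.06 ± 0.13 (SE), with an interval of -0.25 to 0.38.

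Among the genes that regulate the actin filament, Tagln (transgelin, or SM22-alpha, an actin-bundling protein) had 4466, 1420 and 2427 CPM in anti-Stat3 samples, against 3996, 1564 and 2330 CPM in control samples. Cnn1, calponin 1, which binds actin and inhibits the myosin ATPase, had 776, 180.1 and 448 CPM in anti-Stat3 samples, against 653, 206 and 496 CPM in control samples. Both followed Acta2 in being highest in the samples numbered 1 and lowest in those numbered 2. Their blocked log2 changes were 0.03 ± 0.13 for Tagln and -0.03 ± 0.13 for Cnn1 (SE). Exons of Tagln overlap those of Pcsk7 and Gm48529 on the opposite strand in GENCODE's annotation of GRCm38, and the sources used here do not say whether counting used the strand, so its level is uncertain by that overlap. Lmod1, leiomodin 1, which nucleates actin filaments in smooth muscle, had 303.3, 83.6 and 141.1 CPM in anti-Stat3 samples, against 226.7, 91.8 and 163.4 CPM in control samples. It was higher than its control in pair 1, with a change of 0.42, and lower in pairs 2 and 3, with -0.13 and -0.21. Its blocked log2 change was 0.03 ± 0.15 (SE), with an interval of -0.32 to 0.37.

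The tropomyosins lie along the actin filament and set access of myosin and other binding proteins. Tpm1 had 3654, 1858 and 2137 CPM in anti-Stat3 samples, against 3257, 1728 and 2177 CPM in control samples. Tpm2 had 1208, 368.8 and 1141 CPM in anti-Stat3 samples, against 1030, 464 and 1093 CPM in control samples. The ratio of Tpm1 to Tpm2 was 3.02, 5.04 and 1.87 in anti-Stat3 samples 1 to 3, against 3.16, 3.73 and 1.99 in control samples 1 to 3, so the balance of the 2 tropomyosins differed between numbers in both groups, with the samples numbered 2 highest. Cald1, caldesmon 1, which binds actin, tropomyosin and myosin, departed from the rest, with 3028, 2548 and 1707 CPM in anti-Stat3 samples, against 3077, 2174 and 2102 CPM in control samples. Its pair changes of -0.02, 0.23 and -0.30 were of the opposite sign to those of Tagln, Myl9 and Tpm2 in every pair. Tpm1, Tpm2 and Cald1 also make non-muscle isoforms, which counts per gene do not separate.

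**Figure D2:**
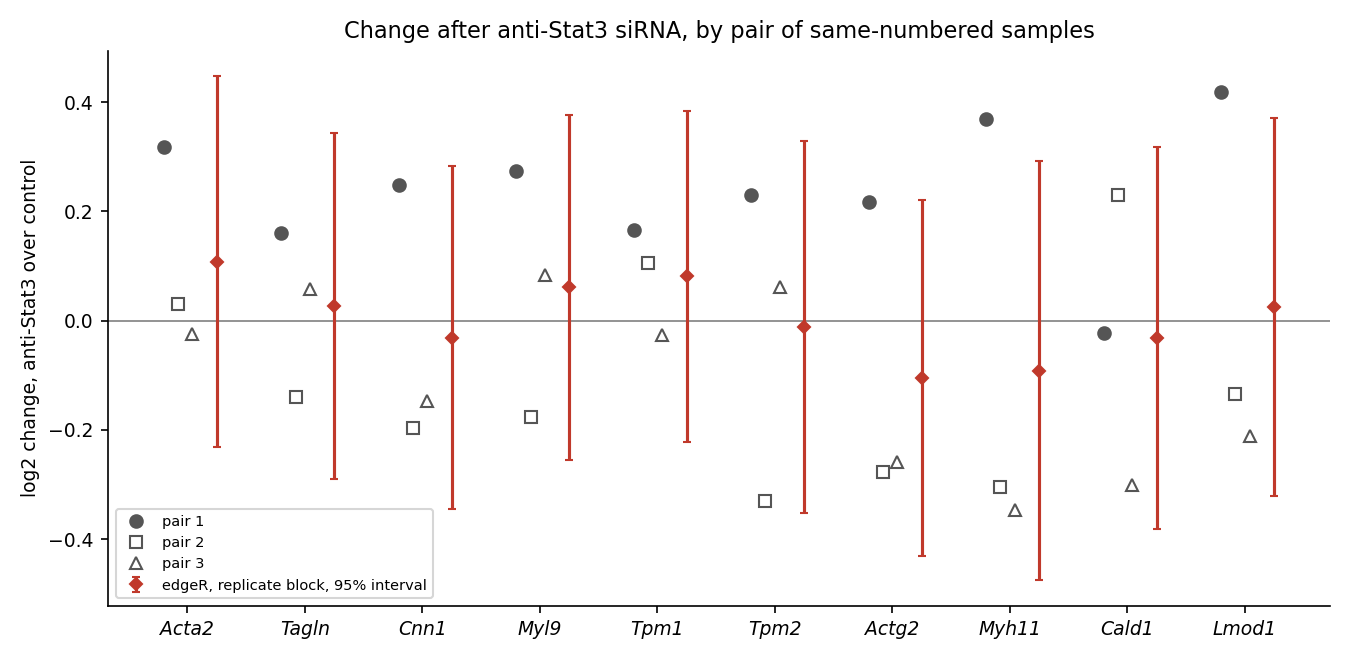
Log2 change after anti-Stat3 siRNA over control siRNA in pairs 1 (filled circle), 2 (open square) and 3 (open triangle), and the edgeR estimate with the pair as a block with its 95% interval (red diamond). Pair 1 is above 0 for 9 of the 10 genes and the interval spans 0 for all 10.

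The small changes took different directions in different pairs. In pair 1, 9 of the 10 genes were higher after anti-Stat3 siRNA, with Cald1 the exception at -0.02. In pair 2 and in pair 3, 7 of the 10 were lower, and the genes above 0 were Acta2, Tpm1 and Cald1 in pair 2 and Tagln, Myl9 and Tpm2 in pair 3. The median change of the 10 genes was 0.24, -0.16 and -0.09 in pairs 1 to 3, beside 0.0011, -7.9e-06 and 0.01 for all genes tested. No gene of the 10 was higher in all 3 pairs, against 17.3% of all genes tested, and none was lower in all 3, against 16.4%. Cnn1, Actg2, Myh11 and Lmod1 were higher in pair 1 and lower in pairs 2 and 3, 4 of the 10 genes against 12.4% of all genes. Over the 3 pairs the median blocked change was 0.01, and -0.0053 for all genes. The blocked intervals of the 10 genes ran from 0.719-fold at the lowest (Myh11) to 1.36-fold at the highest (Acta2). With the group alone they were far wider, from 0.238-fold to 5.17-fold for Myh11, since the spread between numbers then counts as error. Counting error was small beside this, at most 3.24% for the lowest count of any of the 10 genes, 950 for Myh11.

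The contractile genes differed strongly between the numbered pairs, whichever siRNA was used. In edgeR with the siRNA as a term, all 10 genes differed between numbers (adjusted p from 1.9e-04 for Actg2 to 0.048 for Cald1), against 41.5% of all genes tested. The call on Cald1 was lost when any sample other than anti-Stat3 sample 1 was left out. Such a run leaves 1 sample for a number, so its calls are not counted here. All but Tpm2 and Cald1 had the order number 1 highest, 3 next and 2 lowest in mean log2 CPM and were called, 8 of 10 against 6.32% of all genes. Both samples numbered 1 lay above the other 4 samples for 8 of the 10 genes, against 18.9% of all genes. The exceptions were Myl9 and Tpm2, for which numbers 1 and 3 were close.

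The size of the difference between numbers varied with the gene. Number 1 was higher than number 2 for 9 of the 10 genes, against 12.1% of all genes called higher in that contrast. The log2 difference was largest for Myh11, at 2.81 ± 0.21 (SE, adjusted p = 1.8e-04), or 6.94-fold between the geometric means, with Actg2 next at 2.53 ± 0.18 (1.4e-04). Cnn1, Acta2, Lmod1, Tagln and Tpm2 followed, with differences from 1.43 to 1.89. Myl9 (1.09 ± 0.17) and Tpm1 (0.95 ± 0.16) differed less, and Cald1 did not pass (0.37 ± 0.18, adjusted p = 0.180). Number 3 was higher than number 2 for 8 of the 10 genes, against 13% of all genes, with log2 differences from 0.67 for Tagln to 1.42 for Tpm2. Tpm1 (0.27 ± 0.16) and Cald1 (-0.31 ± 0.18) did not pass in that contrast. Number 1 was higher than number 3 for 7 of the 10 genes, against 14.1% of all genes, led again by Myh11 (1.70 ± 0.20) and Actg2 (1.27 ± 0.17). Acta2 (0.50 ± 0.18, adjusted p = 0.075), Myl9 (0.04 ± 0.16) and Tpm2 (0.0028 ± 0.18) did not pass. With only 2 samples per number, 1 of each siRNA, these tests measure the difference between numbers against the spread within them.

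**Figure D3:**
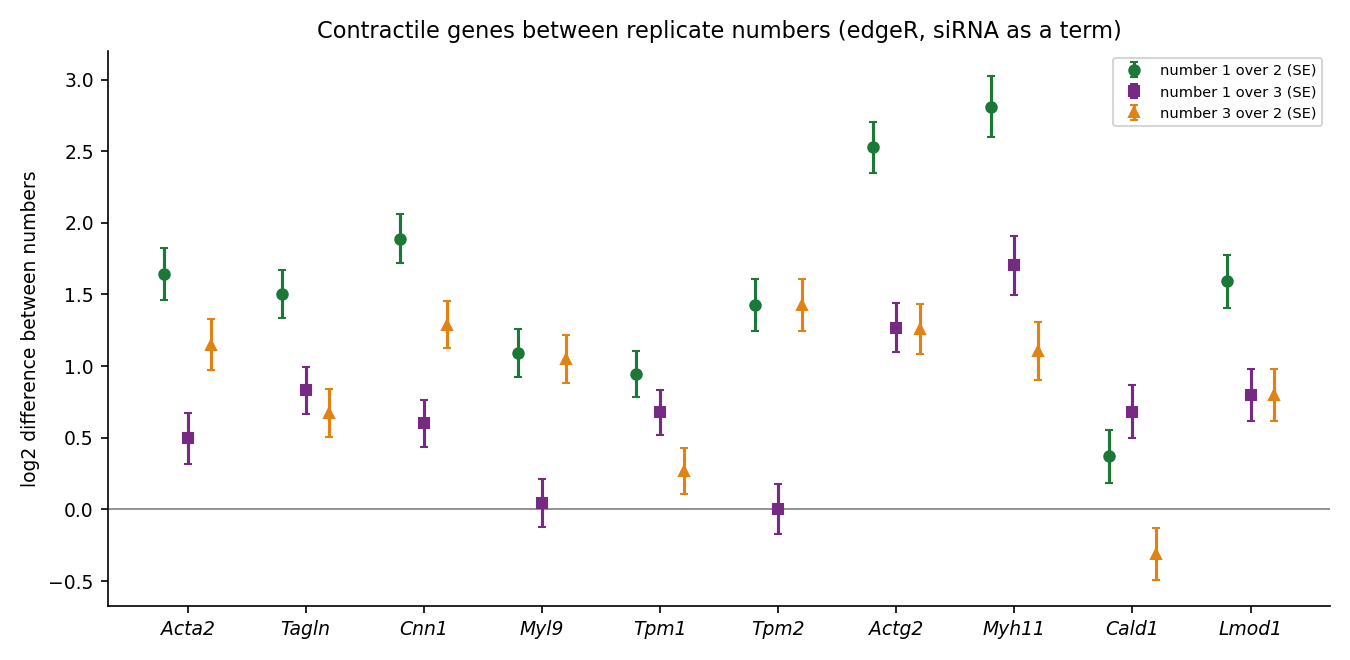
Log2 difference between replicate numbers for each contractile gene, from edgeR with the siRNA as a term (error bars are SE), for number 1 over 2 (green circles), 1 over 3 (purple squares) and 3 over 2 (orange triangles). Myh11 and Actg2 lie highest for number 1 over 2, at 2.81 and 2.53, and Cald1 lies lowest, at 0.37.

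Since the genes differed by unequal amounts, their proportions within a sample changed with the number. Acta2 was 12.4, 24.5 and 22.1 times Actg2 in anti-Stat3 samples 1 to 3, against 11.6, 19.8 and 18.8 times in control samples 1 to 3. Myh11 was 0.496, 0.141 and 0.132 times Myl9 in anti-Stat3 samples, against 0.464, 0.154 and 0.177 times in control samples. The samples numbered 1 thus held relatively more Actg2 and Myh11 transcripts in both groups. Per kb of merged exon length, the mean over the 6 samples was 2235 ± 1038 CPM per kb for Acta2, 1358 ± 634 for Tagln and 723 ± 245 for Myl9 (SD, n = 6). Tpm1 (381 ± 122) and Tpm2 (304 ± 127) came next, with means closer than their SD. Actg2 (206 ± 149), Cald1 (202.6 ± 45.3) and Cnn1 (168 ± 86.7 CPM per kb) followed, also with means closer than their SD. These SDs include the differences between numbers, and levels per kb were not compared within a sample. Lmod1 (42.6 ± 21.3) and Myh11 (31.8 ± 27.2) were lowest. Lengths count all isoforms, so levels per kb are understated for genes with many, such as Cald1 and Tpm1.

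Markers of other cells also differed between the numbers. The summed level of 17 macrophage markers was 43.4, 1649 and 2766 CPM in anti-Stat3 samples 1 to 3, against 47.5, 1738 and 2394 CPM in control samples 1 to 3, so it was lowest in the samples with the highest contractile genes. All 17 were tested and 16 differed between numbers in edgeR, against 41.5% of all genes. The summed level of 12 epithelial or tumour cell markers was 190.1, 527 and 54.9 CPM in anti-Stat3 samples, against 200.6, 547 and 53.3 CPM in control samples, highest in number 2. The 14 fibroblast markers, of which 12 differed between numbers against the same 41.5%, had a median log2 difference of -0.97 for number 1 over 2 and -0.99 for number 1 over 3. They ran in both directions, from -4.09 for Lum to 2.20 for S100a4 for number 1 over 2. These cultures are bulk samples, so fewer cells of a type and less RNA per cell cannot be told apart, and the part of other cells in the differences between numbers was not tested.

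Markers of other contractile cells of the mammary gland and its vessels had low summed levels beside the fibroblast markers. Of 8 myoepithelial markers other than Acta2 and Myh11, the summed level was 38.9, 109.2 and 68.7 CPM in anti-Stat3 samples, against 28.5, 112.3 and 75.9 CPM in control samples. The sum was lowest in number 1, but its members did not follow 1 order. Cdh3, P-cadherin, had 23.4, 38.1 and 62.1 CPM in anti-Stat3 samples, against 15.3, 34.8 and 65.5 CPM in control samples, and was lowest in number 1. Krt17, a basal keratin, had 3.38, 2.02 and 0.230 CPM in anti-Stat3 samples, against 3.04, 1.38 and 0.720 CPM in control samples, and was highest in number 1. Krt5, also a basal keratin, had at most 3 counts in any sample, and Krt14 had 9.65, 9.16 and 1.07 CPM in anti-Stat3 samples, against 7.04, 9.21 and 1.14 CPM in control samples, lowest in number 3. Of 10 markers of pericytes or vascular smooth muscle, the summed level was 204, 159.8 and 133.9 CPM in anti-Stat3 samples, against 163.6, 209 and 155.6 CPM in control samples. These too ran in different orders. Mcam, given below, was highest in number 1 and held most of the sum there, at 148.7 CPM with anti-Stat3 siRNA and 118.8 CPM with control siRNA. Rgs5, a pericyte marker, had 41, 8 and 3 counts in anti-Stat3 samples 1 to 3, against 23, 8 and 5 counts in control samples 1 to 3. Des, the muscle filament desmin, was lowest in number 1, with 3.57, 46.7 and 30.2 CPM in anti-Stat3 samples, against 2.84, 47.4 and 24.3 CPM in control samples. Of 10 skeletal muscle markers, 7 were under 1 CPM in all samples, Ckm had 0 counts throughout, and 3 were tested. The summed level of the 10 was 41.8, 20.9 and 38.4 CPM in anti-Stat3 samples, against 37, 19.95 and 48.6 CPM in control samples. It was lowest in number 2 in both groups.

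Genes related to the contractile set were taken from 5 lists. Of 17 non-muscle counterparts of the contractile genes, such as the actins Actb and Actg1 and the myosin heavy chains Myh9 and Myh10, 15 were tested. For the siRNA 0 of these counterparts were called in any fit, where 0% to 1.66% of all genes were called. Between numbers 6 of them differed in edgeR, against 41.5% of all genes. Their median log2 difference of number 1 over 2 was 0.40, against 1.54 for the 10 contractile genes and 0.0071 for all genes tested. Actb, the cytoskeletal beta-actin, had 3552, 2485 and 3279 CPM in anti-Stat3 samples, against 3088, 2370 and 3159 CPM in control samples, and number 1 was 1.36 times number 2. The difference between numbers did not pass in edgeR (adjusted p = 0.092) and passed in the likelihood ratio test of DESeq2 (adjusted p = 0.019). The 4 members with the smallest blocked p for the siRNA were Myl12b (0.23 ± 0.12), Tagln2 (-0.20 ± 0.12), Myl12a (0.19 ± 0.11) and Myh10 (0.19 ± 0.12; blocked edgeR log2 change ± SE), with adjusted p of 0.541 to 0.613.

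Of 20 regulators of contraction and 13 tested regulators of SRF and MRTFs, 0 were called for the siRNA in any fit, where 0% to 1.66% of all genes were called. Between numbers 12 of the first and 4 of the second list differed in edgeR, against 41.5% of all genes. In the first list, which holds the myosin kinase Mylk, Ppp1r14b, an inhibitor of myosin phosphatase, had a blocked log2 change of 0.37 ± 0.11 (SE, adjusted p = 0.259), followed by Ppp1r14a (0.29 ± 0.16), Dapk3 (0.20 ± 0.13) and Cdc42bpa (-0.18 ± 0.13). In the second, Klf4, known as a repressor of contractile genes in vascular smooth muscle, had 37.5, 43.0 and 75.3 CPM in anti-Stat3 samples, against 31.9, 22.6 and 49.6 CPM in control samples. It was higher in all 3 pairs but did not pass, with a blocked log2 change of 0.59 ± 0.15 (SE, edgeR adjusted p = 0.197, DESeq2 0.078). Mkl2, the coactivator MRTF-B, had -0.22 ± 0.14, Elk3 had -0.13 ± 0.10 and Foxo4 had -0.13 ± 0.12. Srf itself had 98.3, 63.4 and 72.9 CPM in anti-Stat3 samples, against 86.2, 64.2 and 91.8 CPM in control samples, and did not pass between numbers (adjusted p = 0.060). Myocd, the muscle coactivator myocardin, had at most 12 counts in any sample and was not tested.

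Of 28 other genes of smooth muscle or the SRF and MRTF programme, all were tested, 18 differed between numbers against 41.5% of all genes, and 0 passed for the siRNA in edgeR in either fit. DESeq2 with the pair as a block called 2 of them, against 1.66% of all genes. Mcam, a cell adhesion molecule of vascular smooth muscle and endothelium, had 148.7, 29.2 and 34.4 CPM in anti-Stat3 samples 1 to 3, against 118.8, 17.8 and 20.1 CPM in control samples 1 to 3. Like the contractile genes it was highest in number 1, and it was also higher after anti-Stat3 siRNA in each pair. Its log2 change was 0.60 ± 0.17 (SE, DESeq2 adjusted p = 0.026, blocked edgeR 0.170). Fhl2, a LIM protein that binds SRF, rose in that fit by 0.53 ± 0.15 (SE, adjusted p = 0.035, blocked edgeR 0.198). Pgm5 (0.74 ± 0.15) and Itga8 (0.41 ± 0.11), the other genes with the smallest blocked p, did not pass in either tool. The median difference of number 1 over 2 in this list was 0.47, but its members spread widely. In mean log2 CPM, the lowest were Des (-3.83) and Pgm5 (-2.77), and the highest were Mcam (2.54) and Ankrd1 (3.57).

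The list of 22 TGF-beta responsive genes of myofibroblasts also held parts of the pathway itself. These are ligands, receptors and Smad transcription factors, such as Tgfb1, Tgfbr1 and Smad3, so its counts do not describe TGF-beta targets alone. All 22 were tested, and 17 differed between numbers against 41.5% of all genes. Of the 22, 0 had the order of the contractile genes, number 1 highest and number 2 lowest, which 15.6% of all genes had. In the other lists it was held by 16 of the 28 smooth muscle or SRF genes and 8 of the 15 non-muscle counterparts. Of the 20 contraction regulators and the 13 SRF and MRTF regulators, 3 each had it. None of the 22 genes of the TGF-beta list was called for the siRNA in any fit, where 0% to 1.66% of all genes were called. The 4 with the smallest blocked p were Bhlhe40, a transcription repressor (-0.51 ± 0.12), Tgfbi, a secreted matrix protein (-1.18 ± 0.30), Tgfbr3, the co-receptor betaglycan (-0.56 ± 0.18), and Ltbp1, which anchors latent TGF-beta in the matrix (0.38 ± 0.12; blocked edgeR log2 change ± SE, adjusted p from 0.182 to 0.305).

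**Figure D4:**
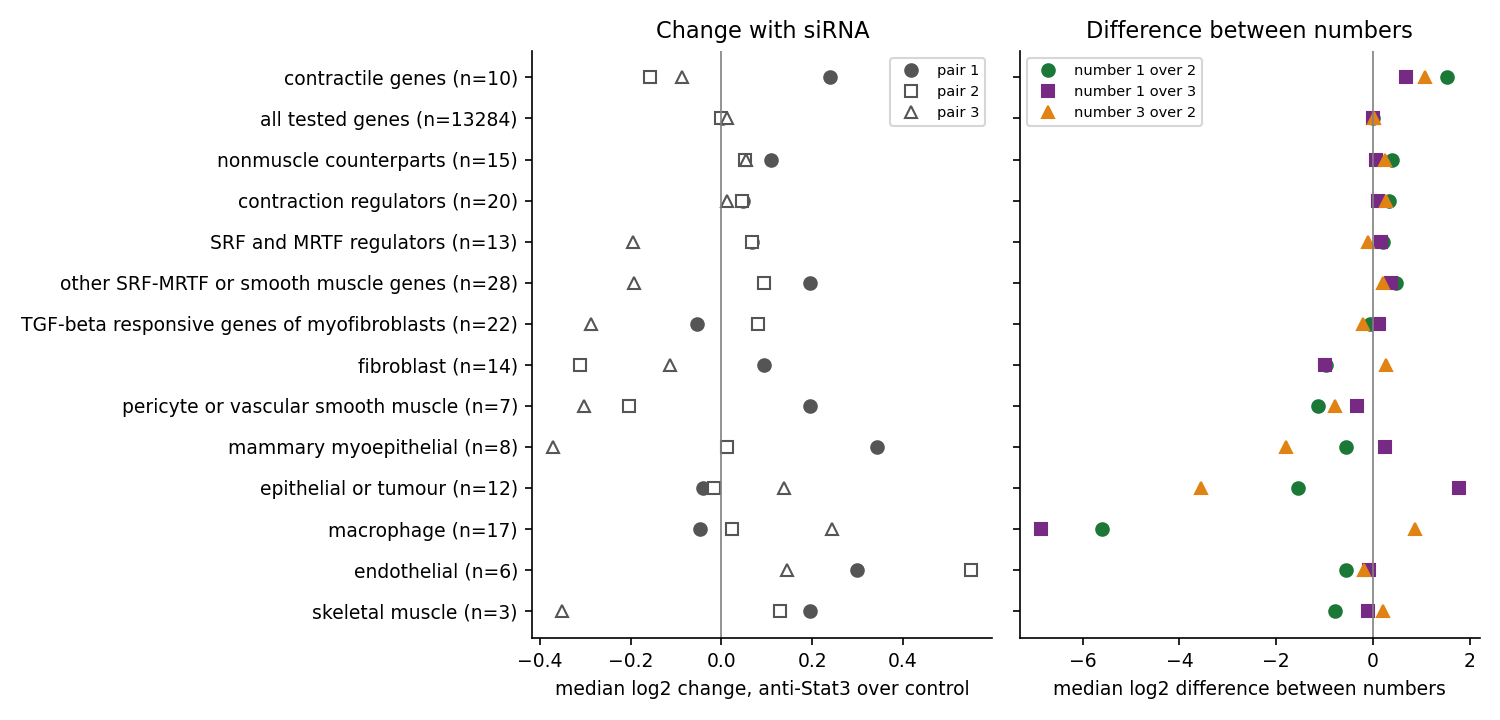
Median log2 values of the contractile genes, all genes tested and each list (number of tested genes in brackets). Left, change after anti-Stat3 siRNA over control siRNA in pairs 1 to 3. Right, difference between replicate numbers. The contractile genes have medians of 1.54, 0.68 and 1.08 for number 1 over 2, 1 over 3 and 3 over 2, and the macrophage markers have -5.59, -6.87 and 0.87.

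The genes whose levels were most like those of Acta2 were found by the root mean square distance of the 6 log2 CPM values, centred on each gene's mean, among 7886 other genes whose log2 CPM averaged 4 or more. Within the contractile genes, Cnn1 (0.13), Lmod1 (0.17), Tagln (0.21), Tpm2 (0.23) and Myl9 (0.25 log2 units) lay nearest, with Cnn1 at rank 3 and Myl9 at rank 27 of all. Tpm1 (0.38) and Actg2 (0.41) were farther, at ranks 134 and 199. Myh11 (0.57), which varied more than Acta2, and Cald1 (0.66) lay at ranks 1377 and 2977. Outside them the 5 nearest were Lurap1l (0.09), Astn2 (0.12), Hspb1, a small heat shock protein that binds actin (0.13), Ecm1, a secreted matrix protein (0.14), and Cav1, the coat protein of caveolae (0.16). Cav1 had 298.3, 87.0 and 260.4 CPM in anti-Stat3 samples, against 271, 89.2 and 216.9 CPM in control samples. The distance is a description of these 6 samples and rests on the differences between numbers.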

How the data were processed

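RNA was extracted with TRIzol, selected for poly(A) and made into TruSeq RNA libraries, per the labels' protocols. The submitters' processing notes name TopHat2 2.0.10, HTSeq and the build mm9. The authors deposited raw counts per gene symbol, not normalised, in 6 columns of whole numbers. A column was assigned to a sample from its group and number, although columns write "sh" where titles write "si". 0 per-sample columns were left unused.

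The main test was edgeR 4.0.16 (quasi-likelihood, R 4.3.3, TMM), with the siRNA group alone. filterByExpr, at a minimum count of 10 and a minimum total of 15, left 13284 genes for Benjamini-Hochberg adjustment at 0.05. The alternatives were the replicate number as a block, DESeq2 1.42.0, other scalings, no filter and samples left out. Numbers were compared with the group as a term. Log2 CPM used a prior count of 2. Same-numbered samples correlated in their deviations from the group means at 0.834, 0.818 and 0.831, and other pairs at -0.163 or below, so the numbers in the titles were taken to pair the samples.

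No label ties replicates to separate cultures or animals, so p-values reflect the spread between these samples alone, and it may be technical. No exact permutation test was used, as 3 samples against 3 allow no two-sided p under 0.1. The genes and lists were chosen with earlier results of these data known. Beyond the 10 genes and Stat3, the text names the 4 genes of each list with the smallest blocked p and the 5 nearest to Acta2. It also names a few marker, regulator and other listed genes chosen after their values were seen. Exon lengths came from GENCODE M21 and promoters from RefSeq, both on GRCm38, and were matched by symbol. No coordinates were converted.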

Additional observations from a re-analysis of the deposited data

How the results depend on the processing

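The call on the contractile genes, 0 of 10 for the siRNA, was the same under each alternative run: DESeq2, size factors, plain library totals, no filter, the replicate block, each sample or pair left out, and Acta2 and Actg2 summed. The last, and DESeq2 with a pair left out, were chosen after seeing the data. In edgeR with the group alone, 0 of all genes were called in the main run. It was also 0 with size factors, plain totals, no filter or Acta2 and Actg2 summed. The same held with each sample left out except control sample 1, and with the block without pair 3. Those runs could only give 0 of 10. The replicate block changed no call on the 10 genes. With it the log2 change was negative for Cnn1 (-0.031 in edgeR, -0.029 in DESeq2), Tpm2 (-0.012 and -0.010), Actg2 (-0.106 and -0.103) and Myh11 (-0.0921 and -0.0899), and with Acta2 and Actg2 summed for Cnn1 (-0.0314), Tpm2 (-0.0122) and Myh11 (-0.0921). Without pair 1 the blocked change was negative for Tagln (-0.041 in edgeR, -0.037 in DESeq2), Cnn1 (-0.172 and -0.169), Myl9 (-0.046 and -0.043), Tpm2 (-0.134 and -0.130), Actg2 (-0.269 and -0.265), Myh11 (-0.327 and -0.323) and Lmod1 (-0.174 and -0.170). Without pair 2 that of Actg2 was -0.024 and -0.023. Without pair 3 Tpm2 had -0.049 and -0.043, Actg2 had -0.028 and -0.020, and Cald1 had 0.104 and 0.110. Plain totals, which put the median of all genes at 0.02, gave Cald1 0.0076. The cause was not tested. The median change of the 10 genes, 0.09 with the group alone, was -0.39 without anti-Stat3 sample 1, 0.44 without anti-Stat3 sample 2, 0.43 without control sample 1 and -0.18 without control sample 2, each of which breaks a pair. With 1 sample or pair left out, the log2 change of Acta2 ranged from -0.32 to 0.50, Tagln from -0.45 to 0.50, Cnn1 from -0.53 to 0.43, Myl9 from -0.13 to 0.42, Tpm1 from -0.26 to 0.38, Tpm2 from -0.23 to 0.44, Actg2 from -0.96 to 0.73, Myh11 from -1.20 to 1.01, Cald1 from -0.20 to 0.18 and Lmod1 from -0.52 to 0.46. Stat3 passed with the block (-2.38 in both tools) and in DESeq2 (-2.33), and also with the block without pair 1 (-2.25 in edgeR, -2.24 in DESeq2), pair 2 (-2.52 and -2.51) and, in DESeq2, pair 3 (-2.39). Left out singly or in pairs, its samples gave -2.55 to -2.03. Between numbers, fewer of the 10 genes were called with 1 number left out. Without number 1, 8 were called (not Tpm1 and Cald1), against 30% of all genes tested. Without number 2 it was 7 (not Acta2, Myl9 and Tpm2), against 28.6%. Without number 3 it was 9 (not Cald1), against 24.3%. DESeq2 with the block called 2 of the other smooth muscle or SRF genes for the siRNA, where edgeR called 0. Over all genes edgeR with the group alone called 0, with 235 at an unadjusted p under 0.05, and the block gave 8 calls in edgeR and 220 in DESeq2. With only 3 pairs that differ in level, changes smaller than the intervals given cannot be told from none.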
